A study of Mus musculus with 16 samples.

Results

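The genes described here were 35 genes of neurotransmitter handling, synaptic vesicle release and membrane excitability. They were chosen by name and function, when differences between these libraries were already known, and Slc17a6 and Vstm2l were among the largest caudal genotype differences then known. The choice may therefore rest on the caudal comparison, and that comparison is given below as a description with no p-value for a member. Each of the 35 symbols matched 1 row of the 56748 genes in the table, and all 35 are protein-coding.

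Whole-tissue RNA was sequenced from 4 groups of 4 mouse embryo libraries at the E11.5 stage. The groups were Ednrb-/- trunk, WT (Ednrb+/+) trunk, Ednrb-/- caudal region and WT caudal region. Ednrb encodes the endothelin B receptor, which neural crest-derived melanocyte precursors and enteric neuron precursors need, and the study concerned the tissue environment of pigmented spots in mice that lack it. The mutation is in every cell of the Ednrb-/- embryos, while strain, litter and the embryo behind each region are not stated. The libraries are labelled as separate biological replicates, with no statement of pooling.

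A neuron that signals loads transmitter into vesicles with a vesicular transporter, holds the vesicles at the membrane with SNARE proteins, complexins and synaptotagmins, and releases them when calcium enters through voltage-gated channels. The transporter a neuron expresses defines its transmitter: Slc17a6 for glutamate, Slc32a1 for GABA and glycine, Slc18a3 for acetylcholine and Slc18a2 for monoamines. At mid-gestation the trunk and tail hold newly born spinal neurons, sensory and sympathetic ganglia and a growing caudal end where neurons are born later than in the trunk.

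The measure throughout was FPKM, which scales the fragments of a gene by its length and by the library total, from 34883821 to 43444905 reads in listed genes per library. The targeted gene checked the labels: Ednrb averaged 3.98 ± 0.596 FPKM in Ednrb-/- trunk and 38.7 ± 2.79 FPKM in WT trunk (SD, n = 4 each). In the caudal libraries it averaged 2.34 ± 0.847 FPKM in Ednrb-/- embryos and 30.6 ± 3.17 FPKM in WT embryos. In 3 libraries, Ednrb-/- caudal replicate 3, WT caudal replicate 2 and Ednrb-/- trunk replicate 3, the female-specific Xist and the Y-linked Ddx3y both reached 5 FPKM. Without these 3 libraries the counts of members that passed the test were 23 in the trunk genotype comparison and 18 in the interaction, against 23 and 14 with them, and 13 against 18 in the WT region comparison, while the caudal genotype and Ednrb-/- region counts stayed at 34 and 33. Syn1, Syp and Glra2 are X-linked, and the sexes were not balanced over the groups by these genes. The 10 pan-neuronal markers (Tubb3, Elavl3, Elavl4, Stmn2, Dcx, Nefl, Nefm, Ina, Gap43 and Rbfox3) summed to 572 to 647 FPKM in Ednrb-/- trunk and 599 to 778 FPKM in WT trunk, and to 198 to 360 FPKM in Ednrb-/- caudal and 507 to 675 FPKM in WT caudal. No marker of that list was at 0 in every library of a group. In bulk tissue, fewer neurons and less of a transcript per neuron cannot be told apart.

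The 35 genes were lowest in the Ednrb-/- caudal region without exception, by their group means. The highest mean was in WT trunk for 29 of them and in Ednrb-/- trunk for the remaining 6, which were Slc18a3, Slc18a2, Chat, Kcnmb2, Grm2 and Rgs4. Nothing is read from these counts, since the members may have been chosen on the caudal comparison. The matching shares of all genes were not computed. Levels per gene length ran from Gabra2, at 0.0333 to 0.233 FPKM over the 16 libraries, to Vamp2, at 12.4 to 23.0 FPKM. In WT trunk the next highest after Vamp2, with a mean of 20.8 ± 1.99 FPKM, were Cplx2 at 15.3 ± 1.51 FPKM, Rab3a at 10.8 ± 1.29 FPKM, Rgs4 at 9.33 ± 0.408 FPKM and Cacna2d1 at 8.91 ± 0.221 FPKM (SD, n = 4). The WT trunk range of Rgs4 overlapped those of Rab3a and Cacna2d1, while every Rab3a library was above every Cacna2d1 library.

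**Figure D1:**
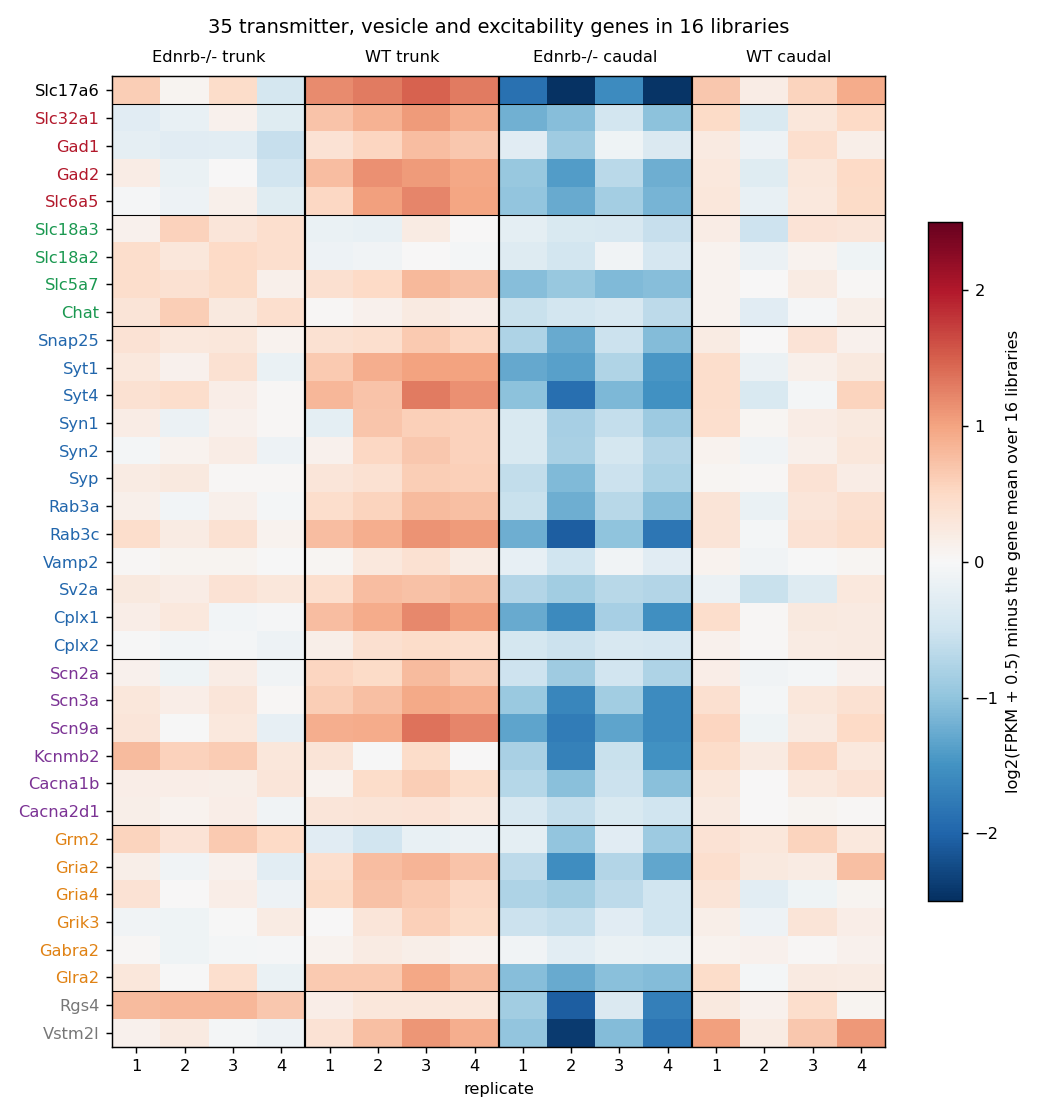
Heat map of the 35 members (rows, coloured by role) in the 16 libraries (columns, by group and replicate). Colour is log2(FPKM + 0.5) minus the gene's mean over the 16 libraries, and the Ednrb-/- caudal columns lie below the gene mean in nearly every cell.

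The fit took 34 of the 35 genes, which reached 0.5 FPKM in at least 4 libraries, as did 17205 genes in all; 19 members reached that level in all 16 libraries. Gabra2 did not reach it in any library. Slc32a1 and Syn2 reached it in the 4 WT trunk libraries, in 2 Ednrb-/- trunk libraries and in 3 WT caudal libraries each. The counts over the 34 are descriptions. Of the 35 genes, 10 were under 0.5 FPKM in each of the 4 Ednrb-/- caudal libraries.

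Trunk libraries enter the caudal comparison only through the shared estimate of the spread. Whether trunk differences also entered the choice of members is not stated. In the trunk, 21 members fell and 2 rose in Ednrb-/- embryos (limma on log2(FPKM + 0.5), Benjamini-Hochberg adjusted p under 0.05 over 17205 genes). Over all genes tested, 13.0% were called lower and 12.2% higher in that comparison, and the higher share of the calls was 48.4%, or 37.1% with limma-voom on whole reads. The median log2 difference was -0.47 for the 34 members and 0.00 for all genes tested. Every Ednrb-/- trunk library was below every WT trunk library for 23 of the 35 members, where 14.2% of all genes tested were separated that way, and above every WT trunk library for 4 members, where 13.9% of all genes were.

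In the caudal region, all 34 genes in the fit were called lower in Ednrb-/- embryos and 0 higher, beside 19.9% called lower and 21.7% called higher among all genes tested. The higher share of the calls over all genes was 52.1%, but 30.7% with TPM scaling and 37.3% with limma-voom on whole reads. The members' median log2 difference was -1.09, against 0.01 for all genes. The caudal groups did not overlap for 31 of 35 members, beside 18.2% of all genes tested. Gad1, Slc18a3, Slc18a2 and Vamp2 overlapped. Nothing is read from these caudal counts, since the members may have been chosen on this contrast.

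The promoters that follow are shown because they carry part of a known neuronal control element. RE1 is a long bipartite sequence bound by the repressor REST, which holds neuronal genes off in other cell types. Its left part was searched as TTCAGCACC and its right part as GGACAGCGC, on both strands, in the 250 bases before each transcription start of the RefSeq promoter table (build GRCm38.p6). Of the 35 genes, 30 matched that table with 36 windows. The left part lay in 5.56% of member windows and 0.301% of all 32851 windows, and the right part in 8.33% of member windows and 0.304% of all windows. A match is a description of letters, not a shown binding site, and the members were chosen among neuronal genes. In the 5 sequences of 100 bases, written 5′ to 3′ on the gene's strand, capitals mark the matched part, which in Gria2 and Slc18a2 lies on the opposite strand and reads as its reverse complement.
Gad2, chr2:22622126-22622225 (+): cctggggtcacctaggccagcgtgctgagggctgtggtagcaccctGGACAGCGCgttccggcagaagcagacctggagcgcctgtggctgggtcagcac
Gria2, chr3:80802955-80803054 (-): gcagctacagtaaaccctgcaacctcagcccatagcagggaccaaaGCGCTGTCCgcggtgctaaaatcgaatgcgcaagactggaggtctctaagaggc
Grm2, chr9:106656260-106656359 (-): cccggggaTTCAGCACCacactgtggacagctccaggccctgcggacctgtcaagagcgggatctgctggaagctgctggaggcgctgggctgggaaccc
Slc18a2, chr19:59260778-59260877 (+): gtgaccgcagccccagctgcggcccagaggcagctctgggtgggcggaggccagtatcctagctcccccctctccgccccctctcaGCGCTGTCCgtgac
Syn1, chrX:20921069-20921168 (-): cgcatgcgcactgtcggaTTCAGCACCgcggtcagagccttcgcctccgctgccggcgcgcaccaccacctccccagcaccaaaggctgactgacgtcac

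The matched part starts 155 bases before the start site in Gad2, 173 in Gria2, 242 in Grm2, 14 in Slc18a2 and 232 in Syn1. These 5 genes differed in direction in the trunk: Gad2 and Gria2 fell, Slc18a2 and Grm2 rose, and Syn1 did not pass the test. Over all windows the other motifs searched were commoner. The E-box letters CAGATG lay in 16.7% of member windows and 14.4% of all windows, and CAGCTG in 25.0% and 13.0%. The GC box GGGCGG lay in 47.2% of member windows and 32.7% of all, and the cAMP response element TGACGTCA in 2.78% of member windows, that of Syn1, and 1.55% of all.

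The glutamate transporter gene Slc17a6 (ENSMUSG00000030500, mm39 chromosome 7, 51271754 to 51320867, plus strand) loads glutamate into vesicles of spinal excitatory and sensory neurons. In the 4 Ednrb-/- trunk libraries it stood at 4.40, 2.87, 3.90 and 1.85 FPKM, against 6.78, 7.38, 8.44 and 7.40 FPKM in WT trunk. The trunk groups did not overlap, and the Ednrb-/- mean was 0.434 times the WT mean, a log2 difference of -1.14 ± 0.23 (SE; limma, adjusted p = 0.0026). In Ednrb-/- caudal libraries it stood at 0.377, 0.0734, 0.581 and 0.0851 FPKM, against 4.63, 3.12, 4.23 and 5.61 FPKM in WT caudal. Ednrb-/- caudal replicates 2 and 4 were the lowest, and the mean was 0.0635 times the WT caudal mean, the largest caudal difference among the members. Nothing is read from this rank, since the large caudal difference of Slc17a6 was known when the members were chosen.

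**Figure D2:**
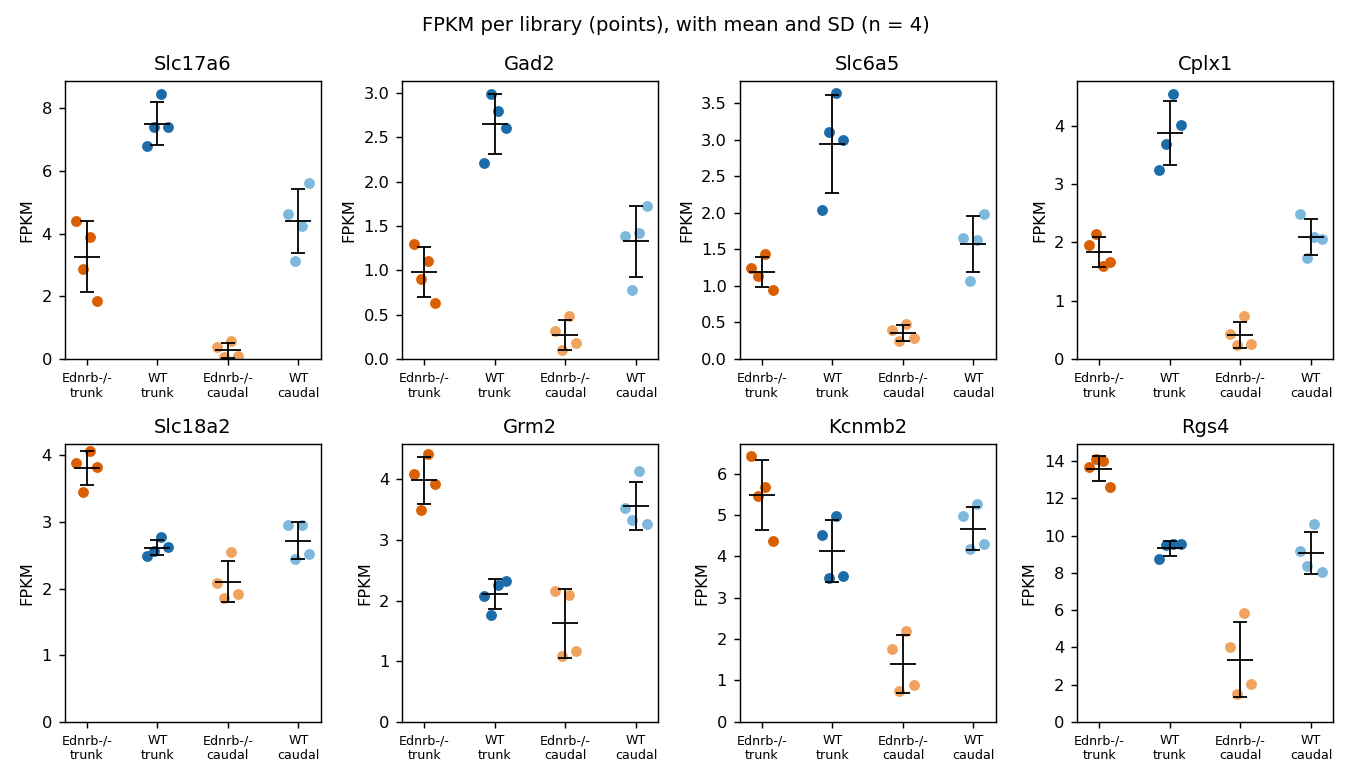
FPKM of 8 members in each library (points, 4 per group), with the group mean and SD (black). Slc17a6, Gad2, Slc6a5 and Cplx1 were lower in Ednrb-/- trunk than in WT trunk, while Slc18a2, Grm2 and Rgs4 had all 4 Ednrb-/- trunk libraries above all 4 WT trunk libraries, and Kcnmb2 overlapped.

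The 4 genes of inhibitory transmission fell together in the trunk, 4 of 4, beside 13.0% of all genes tested called lower. Gad2, which makes GABA at synaptic terminals, stood at 1.30, 0.898, 1.10 and 0.637 FPKM in Ednrb-/- trunk and 2.21, 2.99, 2.80 and 2.60 FPKM in WT trunk. Its log2 difference was -1.10 ± 0.19 (SE; limma, adjusted p = 0.00076). Gad1, the second GABA-making enzyme, stood at 0.689, 0.646, 0.662 and 0.432 FPKM in Ednrb-/- trunk and 1.28, 1.52, 1.87 and 1.71 FPKM in WT trunk, a log2 difference of -0.92 (adjusted p = 0.00083, limma). Slc32a1, the vesicular transporter for GABA and glycine, averaged 0.566 ± 0.146 FPKM in Ednrb-/- trunk and 1.71 ± 0.217 FPKM in WT trunk. Slc6a5, the glycine uptake transporter of glycinergic neurons, averaged 1.19 ± 0.211 FPKM in Ednrb-/- trunk and 2.94 ± 0.669 FPKM in WT trunk (SD, n = 4). The trunk groups did not overlap for any of the 4, where 14.2% of all genes tested were lower in that way.

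In the caudal region the inhibitory genes were less alike. Gad2 averaged 0.269 ± 0.170 FPKM in Ednrb-/- caudal and 1.33 ± 0.402 FPKM in WT caudal, and Slc6a5 averaged 0.352 ± 0.107 FPKM in Ednrb-/- caudal and 1.58 ± 0.379 FPKM in WT caudal. Gad1 stood at 0.640, 0.252, 0.789 and 0.582 FPKM in Ednrb-/- caudal, against 1.13, 0.777, 1.35 and 1.05 FPKM in WT caudal, and these groups overlapped. Gad1 was the only one of the 34 members in the fit whose log2 difference between the caudal and trunk genotype effects was above 0, at 0.34 ± 0.23 (SE), although Slc32a1, Gad2 and Sv2a reached values of 0.00074 to 0.04 under some other settings. It was also the only member in the fit that was not called between Ednrb-/- trunk and Ednrb-/- caudal, with means of 0.607 and 0.566 FPKM.

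Of the 4 cholinergic and monoamine genes, 1 rose and 0 fell in the trunk, beside 12.2% called higher and 13.0% called lower among all genes tested, and whether the 4 differ from the other members was not tested. Slc18a2, which loads dopamine, noradrenaline and serotonin into vesicles, stood at 3.88, 3.45, 4.06 and 3.83 FPKM in Ednrb-/- trunk and 2.49, 2.57, 2.77 and 2.63 FPKM in WT trunk. Every Ednrb-/- trunk library was above every WT trunk library, with a log2 difference of 0.47 ± 0.08 (SE; limma, adjusted p = 0.00099). Chat, the enzyme that makes acetylcholine, stood at 1.03, 1.38, 0.960 and 1.14 FPKM in Ednrb-/- trunk and 0.763, 0.826, 0.941 and 0.888 FPKM in WT trunk. Its groups did not overlap, yet it missed the threshold with a log2 difference of 0.26 ± 0.11 (SE; limma, adjusted p = 0.097).

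Slc18a3, the vesicular acetylcholine transporter, averaged 3.98 ± 0.594 FPKM in Ednrb-/- trunk and 2.94 ± 0.444 FPKM in WT trunk, with a log2 difference of 0.38 ± 0.16 (SE; limma, adjusted p = 0.096). Leaving out WT caudal replicate 2, a library that shares the estimate of the spread, brought its adjusted p to 0.019 (limma). Slc5a7, the choline uptake transporter, averaged 1.61 ± 0.229 FPKM in Ednrb-/- trunk and 2.01 ± 0.332 FPKM in WT trunk, with adjusted p = 0.091 (limma) and 0.036 without WT trunk replicate 1. In caudal libraries Slc5a7 stood at 0.279, 0.351, 0.263 and 0.280 FPKM in Ednrb-/- caudal, against 1.24, 1.15, 1.39 and 1.17 FPKM in WT caudal, with no overlap. Slc18a2 was nearest to level there, at 2.11 ± 0.311 FPKM in Ednrb-/- caudal and 2.72 ± 0.277 FPKM in WT caudal (SD, n = 4). Slc18a3 lies within the first part of the Chat gene on chromosome 14, on the same strand, so the assignment of reads between the pair is uncertain.

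Of 4 motor neuron markers, 1 passed the test in the trunk. Isl1, a LIM homeodomain factor of motor and sensory neurons, averaged 22.7 ± 0.737 FPKM in Ednrb-/- trunk and 19.4 ± 2.13 FPKM in WT trunk (SD, n = 4 each), a log2 difference of 0.23 ± 0.07 (SE; limma, adjusted p = 0.026). Mnx1 averaged 3.09 FPKM in Ednrb-/- trunk and 2.24 FPKM in WT trunk, with adjusted p = 0.052 (limma). Isl2 averaged 6.62 FPKM in Ednrb-/- trunk and 7.05 FPKM in WT trunk, and Lhx3 averaged 2.39 FPKM in Ednrb-/- trunk and 2.28 FPKM in WT trunk, with adjusted p = 0.49 and 0.78 (limma). Th, a marker of sympathetic and chromaffin cells, was higher in Ednrb-/- trunk with a log2 difference of 0.56. Their part in the cholinergic and monoamine values was not tested.

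Among the 12 genes of synaptic vesicles and release, 9 fell in the trunk, 0 rose and 3 did not pass. The shares of all genes tested were 13.0% lower and 12.2% higher. Cplx1, a complexin that clamps the SNARE complex, stood at 1.96, 2.15, 1.60 and 1.66 FPKM in Ednrb-/- trunk and 3.24, 3.69, 4.55 and 4.01 FPKM in WT trunk, a log2 difference of -0.90 ± 0.15 (SE; limma, adjusted p = 0.00061). Syt1, the calcium sensor of fast release, stood at 2.17, 1.92, 2.42 and 1.49 FPKM in Ednrb-/- trunk and 3.03, 3.70, 3.97 and 3.99 FPKM in WT trunk. Neither gene's trunk groups overlapped. Rab3c and Rab3a, small GTPases on vesicles, fell by 0.68 and 0.60 on the log2 scale (adjusted p = 0.015 and 0.0073, limma). Cplx2 averaged 11.3 ± 0.364 FPKM in Ednrb-/- trunk and 15.3 ± 1.51 FPKM in WT trunk, a smaller log2 difference of -0.42 ± 0.06 (SE; limma, adjusted p = 0.00032).

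Syt4, an atypical synaptotagmin, Sv2a, a vesicle glycoprotein, the synapsin gene Syn2 and the vesicle membrane protein gene Syp also fell, with log2 differences of -0.74, -0.41, -0.45 and -0.34. Sv2a averaged 5.05 ± 0.292 FPKM in Ednrb-/- trunk and 6.92 ± 0.860 FPKM in WT trunk, and Syp averaged 2.95 ± 0.252 FPKM in Ednrb-/- trunk and 3.89 ± 0.459 FPKM in WT trunk (SD, n = 4). These 4 calls were near the threshold, with adjusted p from 0.021 to 0.041 (limma). Each was lost without Ednrb-/- trunk replicate 4, WT trunk replicate 3 or WT trunk replicate 4, at adjusted p from 0.056 to 0.11 (limma). Those of Syn2, Syp and Sv2a were lost also without Ednrb-/- trunk replicate 1 or WT trunk replicate 2 (0.053 to 0.080), that of Sv2a without Ednrb-/- trunk replicate 2 (0.076) and that of Syp without Ednrb-/- trunk replicate 3 (0.096).

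The 3 release genes that did not pass in the trunk were Snap25, Vamp2 and Syn1. Snap25, a SNARE protein of the plasma membrane, stood at 4.93, 4.60, 4.69 and 4.04 FPKM in Ednrb-/- trunk and 5.03, 5.18, 6.21 and 5.63 FPKM in WT trunk, with no overlap and a log2 difference of -0.25 ± 0.13 (SE; limma, adjusted p = 0.18). Vamp2, its partner on the vesicle, averaged 18.1 ± 0.465 FPKM in Ednrb-/- trunk and 20.8 ± 1.99 FPKM in WT trunk. Without WT trunk replicate 1 or Ednrb-/- caudal replicate 2 its adjusted p of 0.082 became 0.027 or 0.038 (limma). Syn1 stood at 2.43, 1.83, 2.28 and 2.13 FPKM in Ednrb-/- trunk and 1.67, 3.64, 3.38 and 3.34 FPKM in WT trunk. WT trunk replicate 1 was the lowest of these 8 values, and without it the Syn1 difference had adjusted p = 0.0045 (limma), against 0.15 with it.

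The 12 release genes spanned a wide range in the caudal region. Rab3c stood at 1.34, 0.528, 1.64 and 0.722 FPKM in Ednrb-/- caudal and 4.88, 3.65, 4.98 and 5.34 FPKM in WT caudal, a log2 difference of -1.79. Syt4 stood at 0.558, 0.0873, 0.490 and 0.258 FPKM in Ednrb-/- caudal and 2.43, 1.15, 1.59 and 2.69 FPKM in WT caudal. At the other end Vamp2 stood at 15.2, 12.4, 16.6 and 14.3 FPKM in Ednrb-/- caudal and 18.8, 16.5, 17.5 and 18.2 FPKM in WT caudal, where the groups overlapped and the log2 difference was -0.28. For Syt4 and Rab3c the lowest libraries were Ednrb-/- caudal replicates 2 and 4, as for Slc17a6.

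Of the 6 channel genes, 4 fell in the trunk and 2 did not pass, beside 13.0% of all genes tested called lower. Scn9a, a sodium channel alpha subunit of peripheral neurons, stood at 1.95, 1.46, 1.89 and 1.22 FPKM in Ednrb-/- trunk and 3.19, 3.28, 4.59 and 4.14 FPKM in WT trunk, a log2 difference of -1.01 ± 0.16 (SE; limma, adjusted p = 0.00045). The alpha subunit genes Scn3a and Scn2a, of embryonic and central neurons, fell by 0.61 and 0.58 on the log2 scale (adjusted p = 0.012 and 0.0022, limma). Scn3a averaged 3.40 ± 0.350 FPKM in Ednrb-/- trunk and 5.45 ± 0.625 FPKM in WT trunk, and Scn2a 0.792 ± 0.133 FPKM in Ednrb-/- trunk and 1.43 ± 0.177 FPKM in WT trunk. The 3 sodium channel genes are neighbours on chromosome 2, with 0.0531 Mb between Scn3a and Scn2a and 0.713 Mb between Scn2a and Scn9a. Cacna2d1, an auxiliary subunit of calcium channels, averaged 7.49 ± 0.635 FPKM in Ednrb-/- trunk and 8.91 ± 0.221 FPKM in WT trunk, with no overlap and adjusted p = 0.013 (limma). Cacna1b, the pore of N-type calcium channels at nerve terminals, averaged 2.43 ± 0.140 FPKM in Ednrb-/- trunk and 2.92 ± 0.511 FPKM in WT trunk, with adjusted p = 0.24 (limma).

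Kcnmb2, an accessory subunit of BK potassium channels, had differences of opposite sign in the trunk and the caudal region. It stood at 6.44, 5.46, 5.69 and 4.38 FPKM in Ednrb-/- trunk and 4.52, 3.48, 4.98 and 3.52 FPKM in WT trunk, which overlapped (log2 difference 0.38 ± 0.20, SE; limma, adjusted p = 0.20). Caudal libraries stood at 1.77, 0.742, 2.20 and 0.899 FPKM in Ednrb-/- caudal and 4.97, 4.17, 5.27 and 4.29 FPKM in WT caudal, with no overlap. Scn9a in the caudal region averaged 0.213 ± 0.101 FPKM in Ednrb-/- caudal and 1.96 ± 0.475 FPKM in WT caudal (SD, n = 4), 0.109 times the WT mean.

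Of the 5 receptor genes in the fit, 3 fell and 1 rose in the trunk, beside 13.0% and 12.2% of all genes tested. The AMPA receptor subunit genes Gria2 and Gria4 fell by 0.71 and 0.49 on the log2 scale (adjusted p = 0.011 for each, limma), and the glycine receptor subunit gene Glra2 by 0.64 (adjusted p = 0.0035, limma). Gria2 stood at 3.04, 2.53, 2.97 and 2.16 FPKM in Ednrb-/- trunk and 3.80, 4.96, 5.25 and 4.73 FPKM in WT trunk, with no overlap. Grik3, a kainate receptor subunit, averaged 1.29 ± 0.177 FPKM in Ednrb-/- trunk and 1.80 ± 0.388 FPKM in WT trunk, with adjusted p = 0.058 (limma). Its adjusted p became 0.047 without WT caudal replicate 2, 0.045 without Ednrb-/- trunk replicate 4, 0.013 without WT trunk replicate 1 (limma) and 0.024 with a replicate block. Glra2 in the caudal region stood at 0.155, 0.0719, 0.169 and 0.146 FPKM in Ednrb-/- caudal and 1.39, 0.834, 1.10 and 1.09 FPKM in WT caudal, with no overlap and as few as 8 reads in a library.

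Grm2, a presynaptic metabotropic glutamate receptor that lowers release, was the member that rose most in the trunk. It stood at 4.09, 3.50, 4.42 and 3.92 FPKM in Ednrb-/- trunk and 2.08, 1.76, 2.25 and 2.32 FPKM in WT trunk. Every Ednrb-/- trunk library was above every WT trunk library, with a mean 1.89 times as high and a log2 difference of 0.79 ± 0.15 (SE; limma, adjusted p = 0.0017). Caudal libraries stood at 2.15, 1.09, 2.09 and 1.17 FPKM in Ednrb-/- caudal and 3.52, 3.33, 4.14 and 3.26 FPKM in WT caudal, the opposite order, again with no overlap.

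Gabra2, a GABA-A receptor subunit, was too low for the fit, with 9 to 67 reads per library. In Ednrb-/- trunk it stood at 0.152, 0.0896, 0.119 and 0.123 FPKM, and in WT trunk at 0.177, 0.233, 0.208 and 0.174 FPKM. The trunk groups did not overlap, and the difference in means of -0.0772 FPKM had a two-sided exact permutation p = 0.0286, the smallest that 70 assignments can give. Without WT trunk replicate 2 the difference was -0.0655 FPKM, with exact permutation p = 0.0571.

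Rgs4, a regulator that shortens G-protein signalling, and Vstm2l, an immunoglobulin-domain protein, complete the members. Rgs4 stood at 13.7, 14.1, 14.0 and 12.6 FPKM in Ednrb-/- trunk and 8.72, 9.52, 9.54 and 9.53 FPKM in WT trunk, with no overlap. Its log2 difference of 0.52 ± 0.25 had adjusted p = 0.15 (limma), with an SE that all 16 libraries share, and Rgs4 varied more among the Ednrb-/- caudal libraries. With the trunk groups alone in the fit its adjusted p was 0.00038 (limma), and without Ednrb-/- caudal replicate 3 it was 0.043. Among caudal libraries Rgs4 stood at 4.00, 1.48, 5.86 and 2.01 FPKM in Ednrb-/- caudal and 9.16, 8.37, 10.6 and 8.07 FPKM in WT caudal.

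Vstm2l stood at 3.70, 4.10, 3.31 and 3.07 FPKM in Ednrb-/- trunk and 4.54, 6.09, 7.97 and 6.87 FPKM in WT trunk, with no overlap, a log2 difference of -0.74 ± 0.27 and adjusted p = 0.055 (limma). With the trunk groups alone in the fit its adjusted p was 0.0078 (limma), and it was 0.020 to 0.047 when Ednrb-/- caudal replicate 1, 2 or 3, or WT trunk replicate 1, or WT caudal replicate 2 was left out. Caudal values of Vstm2l were 1.47, 0.249, 1.36 and 0.611 FPKM in Ednrb-/- caudal and 7.44, 4.03, 5.72 and 7.77 FPKM in WT caudal.

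The interaction asked whether the genotype difference itself differed between the regions. It was more negative in the caudal region for 14 members and less negative for 0, beside 3.78% and 2.98% of all genes tested, with a median over the 34 members of -0.66 against 0.01 over all genes. The higher share of the calls over all genes was 44.1%, but 20.9% with TPM scaling and 27.4% with limma-voom. It contains the caudal contrast, on which the members may have been chosen, so the members' values are a description with no p-value and nothing is read from the count. On the log2(FPKM + 0.5) scale the largest values were those of Rgs4 at -1.98 ± 0.35, Kcnmb2 at -1.89 ± 0.29 and Grm2 at -1.76 ± 0.21 (SE). Vstm2l and Slc17a6 followed at -1.57 and -1.54, and the 4 cholinergic and monoamine genes were at -0.77 to -0.88. This order depends on the added 0.5 FPKM: by ratios of means, Slc17a6 was at 0.0635 in the caudal region and 0.434 in the trunk, a wider gap than that of Rgs4, at 0.369 in the caudal region and 1.46 in the trunk. The count was 9 without Ednrb-/- caudal replicate 4 or without WT trunk replicate 1.

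**Figure D3:**
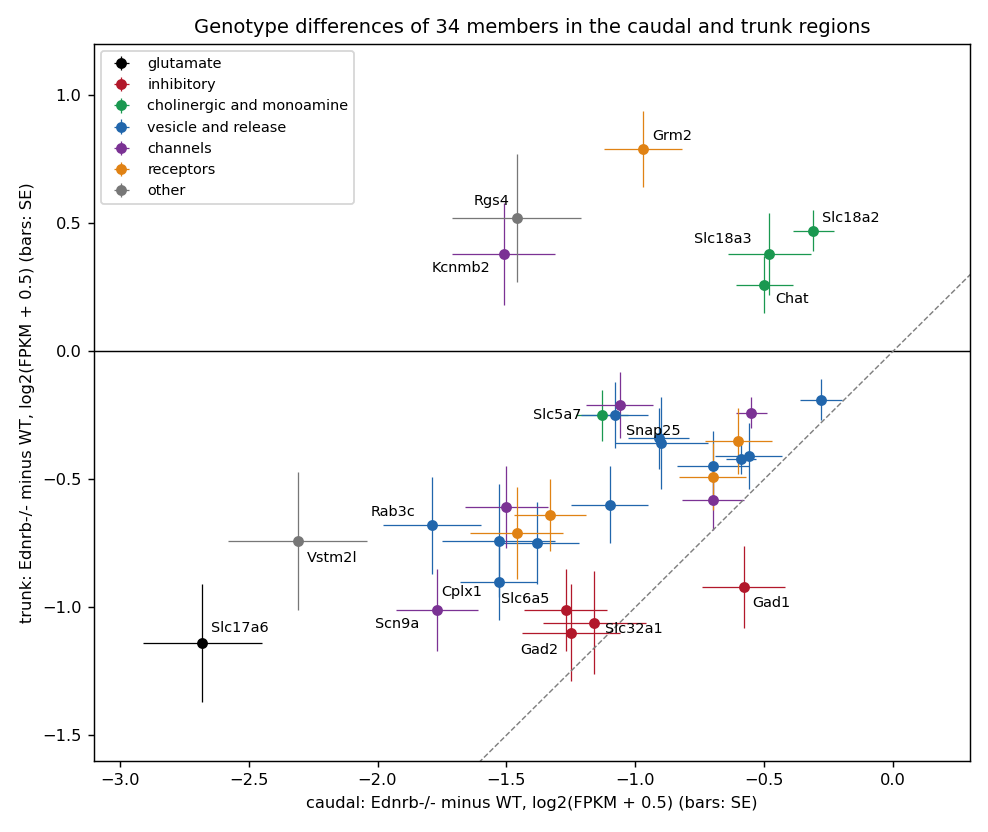
Genotype difference (Ednrb-/- minus WT, log2(FPKM + 0.5)) of 34 members in the caudal region (horizontal) and the trunk (vertical), with SE bars, coloured by role; the dashed line marks equal differences. Every member lies left of 0 on the caudal axis, 6 lie above 0 on the trunk axis, and Gad1 lies below the dashed line.

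The 9 pan-neuronal markers of 10 that passed the interaction test went the same way, with a median over the 10 of -0.91, and the 10 markers were all called lower in the caudal region with a median log2 difference of -1.17. In the trunk 2 of the 10, Gap43 and Rbfox3, were called lower, with a median of -0.22. Of 7 skeletal muscle markers, 6 were called lower and 1 higher in the trunk, and 6 were called lower in the caudal region. In the interaction 6 of these 7 were called lower and 0 higher, with a median of -1.03, beside 3.78% and 2.98% of all genes tested. The 1 that rose in the trunk was Myf5, an early myogenic factor, at 8.28 FPKM in Ednrb-/- trunk and 3.17 FPKM in WT trunk (log2 difference 1.26; adjusted p = 0.000015, limma). The 7 summed to 232 to 248 FPKM in Ednrb-/- trunk and 326 to 411 FPKM in WT trunk, and to 72.3 to 99.6 FPKM in Ednrb-/- caudal and 184 to 196 FPKM in WT caudal. Of 7 sensory neuron markers 6 were in the fit, and 2 were called lower and 1 higher in the trunk, 5 lower in the caudal region and 4 lower in the interaction. The 7 summed to 33.2 to 37.2 FPKM in Ednrb-/- trunk and 36.3 to 46.5 FPKM in WT trunk, and to 20.5 to 28.9 FPKM in Ednrb-/- caudal and 37.7 to 41.4 FPKM in WT caudal. Prph, a neurofilament protein of peripheral neurons, had the largest difference of this list, at -1.36 in the trunk and -2.06 in the caudal region on the log2 scale. Macrophage markers were called lower in both regions, 6 of 6 in each, and so were 3 of 6 mesenchyme markers in each. Other lists did not fall as a whole. Of 5 endothelial markers, 0 were lower in either region, 1 was higher in the trunk and 3 in the caudal region. Of 8 neural progenitor markers, 1 was lower and 1 higher in the trunk, and 1 and 2 in the caudal region. Of 6 erythroid markers, 2 were lower and 1 higher in each region. Of 7 sympathetic and chromaffin markers, 1 was lower and 1 higher in the trunk, and 3 and 3 in the caudal region. Isl1, of the motor neuron markers, was called higher in both regions and Isl2 lower in the caudal region. Among all genes tested, 13.0% were called lower and 12.2% higher in the trunk, and 19.9% and 21.7% in the caudal region. The part of these cell types in the members' values was not tested.

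Each member's FPKM was also expressed as a share of the summed pan-neuronal markers of the same library, as a description. In the trunk the share was lower in every Ednrb-/- library than in every WT library for 20 of 35 members, higher for 6 and overlapping for 9. Over all genes tested, on the same scale, 5.20% were lower in that way and 17.8% higher. The 6 with a higher share were the same 6 genes whose mean was highest in Ednrb-/- trunk. Slc17a6 was 0.537 ± 0.170% of the sum in Ednrb-/- trunk and 1.10 ± 0.051% in WT trunk, and Gad2 was 0.163 ± 0.0406% in Ednrb-/- trunk and 0.389 ± 0.0495% in WT trunk (SD, n = 4). In the caudal region the share was lower for 14 members, higher for 4 and overlapping for 17, beside 1.24% of all genes tested lower and 78.7% higher. The sum itself was lower in every Ednrb-/- caudal library than in every WT caudal library. The 4 with a higher caudal share were Slc18a2, Vamp2, Cplx2 and Cacna2d1, and Slc17a6 kept the lowest ratio, 0.124 times the WT share.

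**Figure D4:**
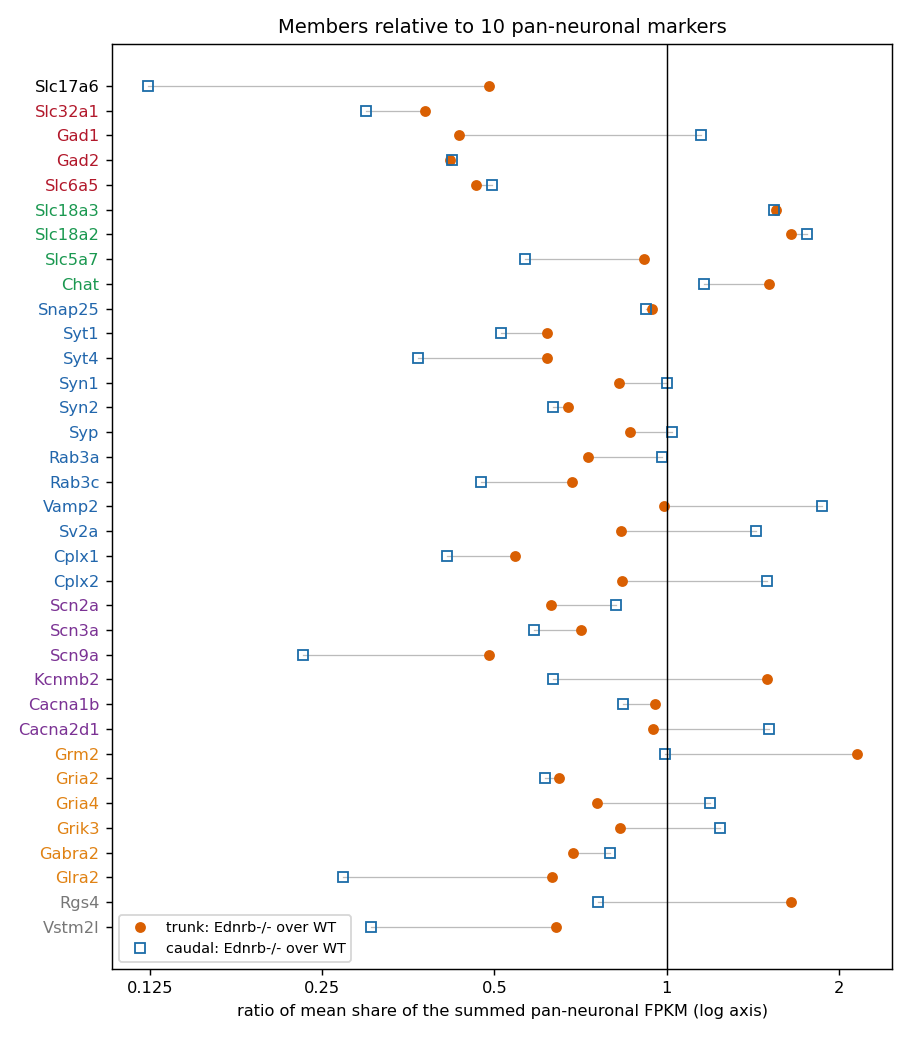
Ratio of the mean share of the summed pan-neuronal FPKM, Ednrb-/- over WT, for the 35 members in the trunk (filled circles) and the caudal region (open squares), on a log axis; 1 marks equal shares. Slc17a6 lies at 0.124 in the caudal region and 0.489 in the trunk, and Grm2 at 0.993 and 2.15.

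Between the regions of WT embryos, 17 members were higher in the trunk and 1 was lower, beside 9.69% and 8.35% of all genes tested, with a median log2 difference of 0.40 over the 34 members and 0.00 over all genes. This comparison shares the WT caudal libraries with the caudal genotype comparison, on which the members may have been chosen. It is therefore a description with no p-value for a member. Sv2a averaged 6.92 ± 0.860 FPKM in WT trunk against 3.62 ± 1.02 FPKM in WT caudal (log2 difference 0.87 ± 0.13, SE). Syt4, Scn9a and Gad2 were at 0.86, 0.82 and 0.81, within the SEs of 0.13 to 0.22 of these 4 genes, and by ratios of means Gad2, at 1.99, was above Sv2a, at 1.91. Grm2 was the lower one, at 2.10 ± 0.253 FPKM in WT trunk against 3.56 ± 0.402 FPKM in WT caudal (log2 difference -0.64 ± 0.15, SE). Rgs4, Vstm2l and Slc18a2 differed by 0.05, 0.04 and -0.04 on the log2 scale, under their SEs of 0.25, 0.27 and 0.08. The count of 18 became 12 without WT caudal replicate 2 or without WT trunk replicate 3. Of the 10 pan-neuronal markers 0 were called in this comparison, in limma (0 at an unadjusted p under 0.05) and in limma-voom on whole reads (5 at an unadjusted p under 0.05), where their log2 differences ran from -0.06 to 0.42.

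Between the regions of Ednrb-/- embryos, 33 of 34 members were higher in the trunk and 0 lower, beside 17.3% and 18.9% of all genes tested, where the higher share of the calls was 47.8%, or 66.9% with TPM scaling. The median log2 difference was 1.00. This comparison shares the Ednrb-/- caudal libraries with the caudal genotype comparison and is a description. Slc17a6 averaged 3.26 ± 1.13 FPKM in Ednrb-/- trunk against 0.279 ± 0.246 FPKM in Ednrb-/- caudal, and Rgs4 averaged 13.6 ± 0.694 FPKM in Ednrb-/- trunk against 3.34 ± 2.00 FPKM in Ednrb-/- caudal (SD, n = 4).

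The wider families were read from 11 gene lists, which hold 210 other genes in the table, 142 of them in the fit. In the trunk 56 of the 142 fell and 6 rose, beside 13.0% and 12.2% of all genes tested, with a median log2 difference of -0.20. In the caudal region 88 were called lower and 10 higher, with a median of -0.37, beside 19.9% and 21.7% of all genes tested. In the interaction 18 were lower and 3 higher, beside 3.78% and 2.98% of all genes tested. The other voltage-gated calcium channel genes moved one way: 9 of 12 fell in the trunk and 11 of 12 were called lower in the caudal region, as with Cacna1g, a T-type channel, at 7.85 FPKM in Ednrb-/- trunk and 11.9 FPKM in WT trunk (log2 difference -0.57; adjusted p = 0.0030, limma).

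Among vesicle genes outside the members, 7 of 17 fell and 0 rose in the trunk, beside 13.0% and 12.2% of all genes tested. Sv2c, a relative of Sv2a, was at 0.703 FPKM in Ednrb-/- trunk and 1.76 FPKM in WT trunk (-0.91; adjusted p = 5.9e-05, limma). Among GABA and glycine receptor genes, a list that includes GABA-B subunits, 4 of 9 fell. Of the metabotropic glutamate receptors in the fit, Grm3 fell by 0.99 in the trunk (adjusted p = 0.00043, limma), opposite to Grm2. Of the 35 other genes of the release machinery 14 fell and 1 rose, and Sncg, a synuclein of sensory neurons, averaged 36.0 FPKM in Ednrb-/- trunk and 63.9 FPKM in WT trunk (-0.82; adjusted p = 0.022, limma).

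Of the 14 other genes of transmitter synthesis and transport, 3 fell and 2 rose in the trunk, beside 13.0% and 12.2% of all genes. Th, the first enzyme of catecholamine synthesis, was higher in Ednrb-/- embryos of both regions, at 3.67 FPKM in Ednrb-/- trunk and 2.35 FPKM in WT trunk, and 2.57 FPKM in Ednrb-/- caudal and 1.73 FPKM in WT caudal. Its log2 difference was 0.56 in the trunk and 0.46 in the caudal region (adjusted p = 0.0015 and 0.0028, limma). Dbh, which makes noradrenaline, averaged 3.90 FPKM in Ednrb-/- trunk and 4.92 FPKM in WT trunk, and 0.197 FPKM in Ednrb-/- caudal and 2.49 FPKM in WT caudal.

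The other families were mixed in the trunk, where 13.0% of all genes tested were called lower and 12.2% higher. No family count was tested against these shares. Among nicotinic receptor genes 2 of 10 fell and 2 rose, as with Chrna1, the muscle receptor subunit, at -0.78 and Chrna7, a neuronal subunit, at 0.34 (adjusted p = 0.00014 and 0.0023, limma). Among potassium channel genes 6 of 19 fell and 1 rose, with Kcnd2, of the transient A-type current, at -0.83 (adjusted p = 0.00083, limma). Among sodium channel genes 3 of 8 fell, and the beta subunit gene Scn3b was at -0.77 (adjusted p = 0.014, limma). Ionotropic glutamate receptor genes outside the members fell in 5 of 10 cases, with Gria1 at -0.73 (adjusted p = 0.0018, limma). Of the 6 other R4 RGS genes, 2 fell and 0 rose, and Rgs16 was at -0.57 (adjusted p = 0.00038, limma).

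**Figure D5:**
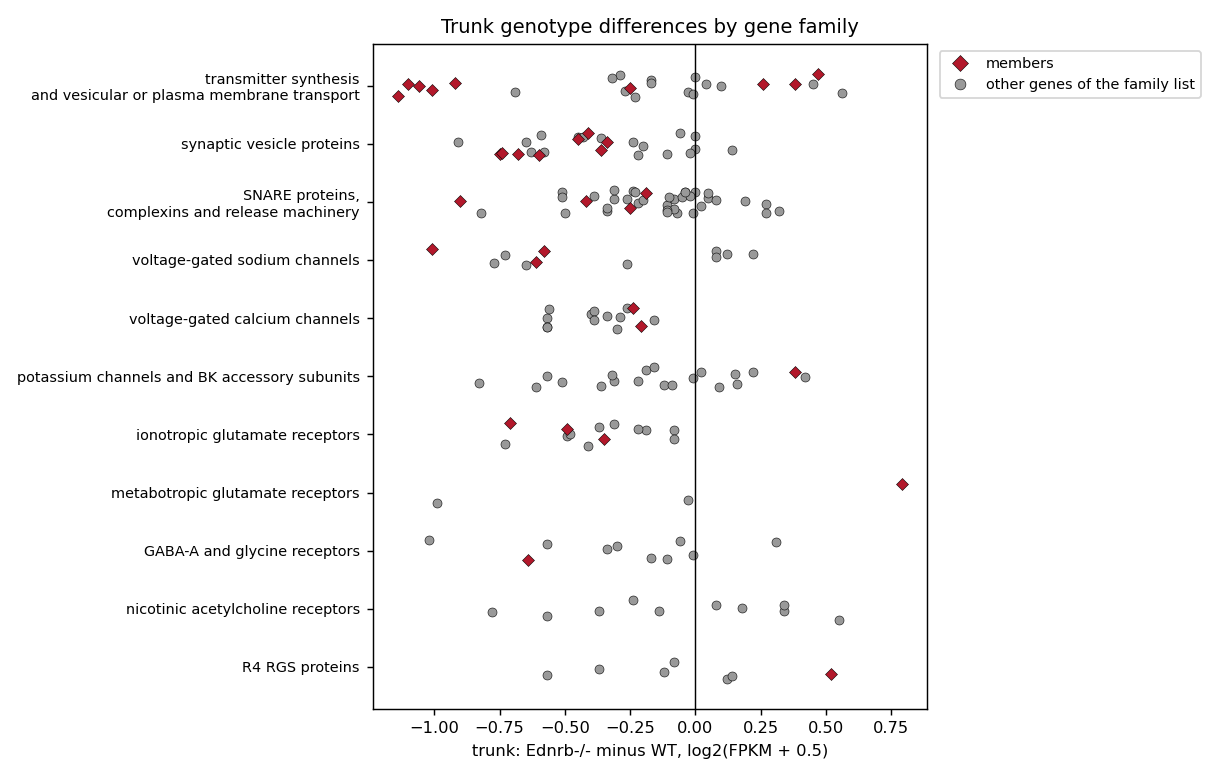
Trunk genotype difference (Ednrb-/- minus WT, log2(FPKM + 0.5)) of the genes in the fit in 11 family lists (rows), with members as red diamonds and the other genes as grey circles, spread vertically for legibility. The other calcium channel genes all lie below 0, and Grm2 at 0.79 lies to the right of the other metabotropic receptors. The list of GABA-A and glycine receptors also includes GABA-B subunits.

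Members were spread over 17 chromosomes, with 9 on chromosome 2. Syn1 on the X chromosome contains Timp1 and meets Araf on the opposite strand, and Rab3a meets Mpv17l2 on the opposite strand. Chat meets the long noncoding RNA gene Gm2990 on the opposite strand, which reached 1.93 FPKM, against at most 1.38 FPKM for Chat. Gad1 meets the long noncoding RNA gene Gad1os on the opposite strand, at up to 0.687 FPKM. The sources used here do not say whether counting used strand, so reads of these overlapping genes cannot be told apart.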

How the data were processed

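Total RNA of the trunk or caudal region of embryos at E11.5 was sequenced in 16 libraries, 4 per group. Per the submitters' processing notes, fastp, HISAT2 2.0.5 and featureCounts 1.5.0-p3 were used on build mm39. The annotation release and strand setting are not stated. The deposited values are FPKM per gene, made by the authors, in 1 table per the file headers. Multiplied by gene length they gave whole reads for 100% of values within 0.01, and gave the depth. Libraries of a group differed by more than counting noise (chi-square per degree of freedom 5.795 to 17.78), so no pair agreed within it. Whether replicates came from different litters is not stated, and p-values measure the spread between these libraries only.

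The members and lists were chosen with earlier results of these data known. Genes that reached 0.5 FPKM in 4 or more libraries, 17205 in all, were tested with limma 3.58.1 in R 4.3.3 on log2(FPKM + 0.5), with 4 group means, all 16 libraries sharing 1 estimate of the spread, a trended prior and Benjamini-Hochberg adjustment over all genes tested. Differences on this scale understate the change of low genes. Named non-members were picked from up to 3 of each list by smallest adjusted p in the trunk and up to 3 in the caudal genotype comparison, at a group mean of at least 1 FPKM. Gabra2 had an exact permutation test. Promoter sequences came from RefSeq on GRCm38.p6, a build other than that of the table, and coordinates of the 2 builds were not joined. Alternatives were other pseudocounts, filters, scalings, whole reads, designs, weights and libraries left out. Some genes of the lists count in the totals and are not reported here by name.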

Additional observations from a re-analysis of the deposited data

Results flagged for a closer look

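Among the 140 groups of 4 libraries looked at (35 members in 4 groups), 4 libraries stood apart from the other 3 of their group by Dixon's criterion, which chance meets in about 1 of 20 groups. Gad1 was lowest in Ednrb-/- trunk replicate 4, at 0.432 FPKM against 0.646 to 0.689 FPKM in the others. Syn1 was lowest in WT trunk replicate 1, at 1.67 FPKM against 3.34 to 3.64 FPKM. Cacna1b was highest in Ednrb-/- trunk replicate 4, at 2.64 FPKM against 2.35 to 2.36 FPKM. Rgs4 was lowest in WT trunk replicate 1, at 8.72 FPKM against 9.52 to 9.54 FPKM.

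For 14 members the difference between the caudal and trunk genotype effects was past the threshold of the fit across all genes. The members may have been chosen on the caudal comparison, which this difference contains, so the values are a description. The count was 9 without Ednrb-/- caudal replicate 4 or without WT trunk replicate 1. The log2 difference of the differences, caudal minus trunk, was -1.54 for Slc17a6, -0.86 for Slc18a3, -0.77 for Slc18a2, -0.88 for Slc5a7, -0.77 for Chat, -0.84 for Snap25 and -1.11 for Rab3c. It was -0.89 for Scn3a, -1.89 for Kcnmb2, -0.85 for Cacna1b, -1.76 for Grm2, -0.69 for Glra2, -1.98 for Rgs4 and -1.57 for Vstm2l. Slc18a3, Slc18a2, Chat, Kcnmb2, Grm2 and Rgs4 had a negative caudal and a positive trunk difference; of these, the trunk difference passed its own test in Slc18a2 and Grm2.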

How the results depend on the processing

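The count of members called stayed within 1.5 times under 11 alternatives and 16 fits that left out a library each, except in the interaction, where it was 14 and became 9 without a filter on low values, without Ednrb-/- caudal replicate 4 and without WT trunk replicate 1. A fit of only the groups compared does not apply to the interaction. Leaving out single libraries gave 33 to 34 in the caudal comparison, 19 to 28 in the trunk, 33 to 33 between regions of Ednrb-/-, 12 to 23 between regions of WT and 9 to 19 in the interaction, and a Gabra2 difference of -0.0876 to -0.0655 FPKM. The count for the other genes of the lists in the interaction ran from 9 to 47. Replicate numbers did not pair the samples (correlations from -0.0836 to 0.109); with a replicate block the counts were 34, 24, 33, 20 and 16. The quasi-likelihood count test was not run, since the deposited unit is FPKM. Of 916 trunk values of single members, 853 kept their direction and side of the threshold, 28 lost the call, 35 gained it and 0 reversed. The 8 caudal values that lost the call were those of Slc18a3. Differences near 0 reversed as follows, and the cause was not tested. Between regions of Ednrb-/-, Gad1 was at -0.04 with quantile normalization and -0.08 to 0.18 with a library left out. Between regions of WT, Rgs4 was at -0.0023 to 0.12 and Vstm2l at -0.14 to 0.18 with a library left out, and Vstm2l at -0.14 without the 3 libraries with Xist and Ddx3y. In the interaction, Slc32a1 was at 0.04 with a pseudocount of 1 FPKM and 0.02 with quantile normalization, Gad2 at 0.02 with a pseudocount of 1 FPKM, and Sv2a at -0.27 to 0.00074 with a library left out. Depth limits Gabra2, Slc17a6, Slc32a1, Syt4, Cplx1, Glra2 and Vstm2l, each with under 20 reads in at least 1 library.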
